A study of Homo sapiens with 2 samples.

Results

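The INK4 and CIP/KIP families of cyclin-dependent kinase (CDK) inhibitors were followed in RNA co-precipitated with LRPPRC, an RNA-binding protein of mitochondria and cytoplasm. The members were chosen by gene name and not by any measured value, although earlier results of these data were known. They were CDKN1A, CDKN1B and CDKN1C of the CIP/KIP family and CDKN2A, CDKN2B, CDKN2C and CDKN2D of the INK4 family. All 7 had exactly 1 row each among the 21262 rows of the expression table, of which 16802 carry a gene name. The RNA came from lysates of wild-type A549 cells, a human lung adenocarcinoma line of epithelial origin, precipitated with 2 μg of anti-LRPPRC antibody. There were 2 libraries of this 1 condition, LRPPRC RIP replicate 1 and replicate 2, which the paper calls biological and the series description technical, so their spread may be technical only. No untreated, input or IgG library was analysed here. Values are FPKM, fragments scaled by transcript length and by the mapped fragments of the library, and describe how much of an mRNA was precipitated, not its enrichment over input. How much of a level comes from binding to LRPPRC and how much from the abundance of the mRNA in the cell cannot be told apart without input. With 1 condition no test between conditions exists, and an exact permutation of 2 against 2 values cannot go below p = 0.333 (two-sided), so genes were compared by their values and by whether their libraries overlapped.

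CDK inhibitors hold cells in G1. INK4 proteins are built of ankyrin repeats and bind CDK4 and CDK6 alone, which keeps D-type cyclins from activating them. CIP/KIP proteins bind the cyclin and the kinase together, block CDK2 complexes and also help to assemble CDK4 and CDK6 with cyclin D. Both families act on the step at which RB is phosphorylated and E2F is released, the step that CDK4/6 inhibitor drugs also target.

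The inhibitor mRNAs fell into 3 that lay close together at 8 to 10 FPKM, 2 at lower levels and 2 below 1 FPKM. CDKN1B, which encodes p27, was the highest, with 9.76 FPKM in replicate 1 and with 9.58 in replicate 2. CDKN2B, which encodes the TGF-beta-induced INK4 protein p15, had 9.32 and 9.18 FPKM. CDKN1A, which encodes p21, an inhibitor induced by DNA damage, had 8.11 and 8.26 FPKM. The libraries of these 3 genes did not overlap in either direction, but the gaps were small: CDKN1B exceeded CDKN2B by a ratio of 1.05 between means, and CDKN2B exceeded CDKN1A by 1.13.

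CDKN2A, which encodes p16 and, from another first exon and reading frame, ARF, had 3.71 FPKM in replicate 1 and 3.31 in replicate 2. The table holds a single row for the gene, so the p16 and ARF transcripts were not separated. CDKN2C, which encodes the INK4 protein p18, had 1.99 and 2.30 FPKM. CDKN2A was thus above CDKN2C in both libraries, by 1.87 times in replicate 1 and 1.44 times in replicate 2.

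The lowest inhibitors were one of each family. CDKN2D, which encodes the INK4 protein p19, had 0.524 FPKM in replicate 1 and 0.693 in replicate 2. CDKN1C, an imprinted gene that encodes p57, had 0.224 and 0.162 FPKM. Each library of CDKN2D was above each library of CDKN1C. Of the 21 pairs of inhibitors, 0 overlapped between libraries, so the order by level was the same in both. The highest mean was 50.1 times the lowest.

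**Figure D1:**
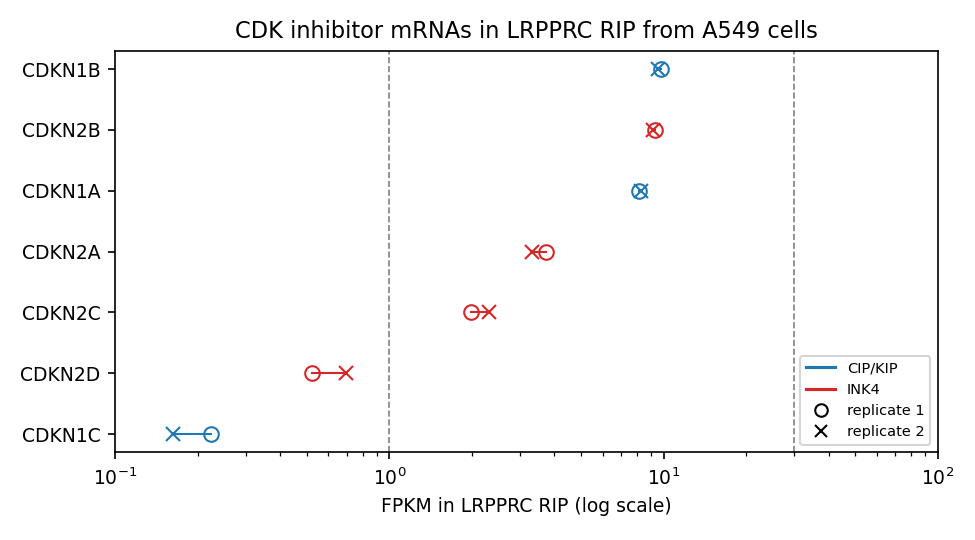
Levels of the 7 CDK inhibitor mRNAs in LRPPRC RIP (x axis, FPKM, log scale), ordered by mean (y axis), with CIP/KIP genes in blue and INK4 genes in red. Circles are replicate 1, crosses are replicate 2 and the dashed lines mark FPKM 1 and 30; all genes lie left of 30, and CDKN2D and CDKN1C lie left of 1.

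As mean and spread, the levels were 9.67 ± 0.129 FPKM for CDKN1B, 9.25 ± 0.0994 for CDKN2B, 8.19 ± 0.107 for CDKN1A and 3.51 ± 0.287 for CDKN2A (SD, n = 2 each). CDKN2C had 2.15 ± 0.222, CDKN2D 0.609 ± 0.120 and CDKN1C 0.193 ± 0.0436 (SD, n = 2 each). The families summed to similar levels. The 3 CIP/KIP mRNAs reached 18.1 FPKM in replicate 1 and 18.0 in replicate 2, and the 4 INK4 mRNAs reached 15.5 in each library. CDKN1B and CDKN1A made up nearly all of the first sum, whereas CDKN2B led the second. All 7 together took 0.0171% of the FPKM total of replicate 1 and 0.0172% of that of replicate 2.

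The study takes FPKM above 30 as its threshold for a transcript bound by LRPPRC. It also reports RIP signal over input, which by PCR was far higher for CDK6 than for CDK1, CDK2 or CDK4. Of the 7 inhibitors, 0 had a mean above 30, where 6.73% of all rows and 8.45% of named rows did, and a count of 0 among 7 genes is close to those shares. FPKM of at least 1 in both libraries was reached by 5 of 7, against 52.3% of all rows and 62.2% of named rows. CDKN1B was above 80.4% of all rows by mean, CDKN2B above 79.6% and CDKN1A above 77.8%. CDKN2A was above 64.4% and CDKN2C above 56.9%. Only CDKN2D, above 40.8% of rows, and CDKN1C, above 26.9%, stood in the lower part of the table.

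The agreement of the libraries followed the level. The fold between the libraries was 1.02 for each of CDKN1B, CDKN2B and CDKN1A, 1.12 for CDKN2A, 1.16 for CDKN2C, 1.32 for CDKN2D and 1.38 for CDKN1C. In the 0.1 to 1 FPKM range, where CDKN2D and CDKN1C lie, the median fold over 5902 rows was 1.25. Over the 7284 rows from 1 to 10 FPKM, where the other 5 inhibitors lie, it was 1.06. The libraries differed by more than 1.5 times for 0 of 7 inhibitors, against 11.4% of the rows with a mean of at least 0.1 FPKM and values above 0. The direction was not shared: replicate 1 was higher for CDKN1B, CDKN2B, CDKN2A and CDKN1C, and replicate 2 for the other 3.

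**Figure D2:**
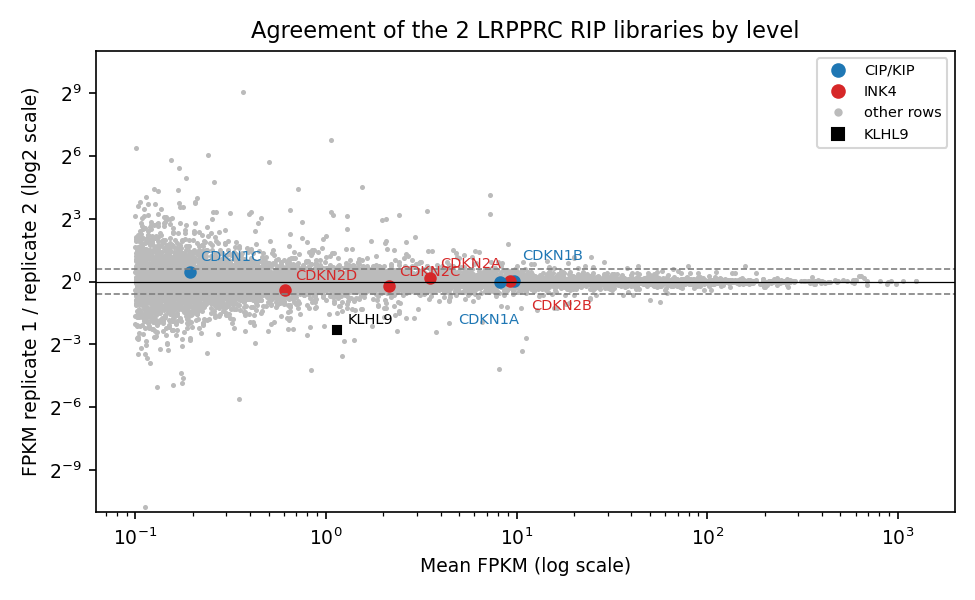
Ratio of FPKM in replicate 1 to FPKM in replicate 2 (y axis, log2 scale) against mean FPKM (x axis, log scale) for rows with a mean of at least 0.1 FPKM and values above 0. Gray points are other rows, colored points the 7 inhibitors, the black square is KLHL9, and the dashed lines mark a difference of 1.5 times, which no inhibitor reaches.

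The genes lie at 6 places of the genome. In GENCODE 44 on GRCh38, CDKN2A (ENSG00000147889, chromosome 9, 21967752 to 21995301) and CDKN2B (ENSG00000147883, chromosome 9, 22002903 to 22009305) are neighbors on the minus strand. CDKN1A lies on chromosome 6 from 36676460 to 36687337 and CDKN1B on chromosome 12 from 12685498 to 12722369. CDKN2C lies on chromosome 1 from 50960745 to 50974634, CDKN1C on chromosome 11 from 2883213 to 2885775 and CDKN2D on chromosome 19 from 10566460 to 10569059. Other annotated genes overlap several of them on the opposite strand: CDKN2B-AS1 overlaps CDKN2A and CDKN2B, DINOL overlaps CDKN1A and GPR19 overlaps CDKN1B. Annotated genes without a symbol also overlap CDKN2C, CDKN2A and CDKN2B on the opposite strand. The library kit keeps strand, but no source used here says whether the quantification used it, so fragments of such overlaps may be counted with the inhibitors.

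FPKM divides by transcript length, and the canonical transcripts of the family differ widely in it. CDKN2B has the longest, 3853 bases, of which the coding sequence takes 417 and the 3′ UTR 80.0%. CDKN2A and CDKN2C have the shortest, 978 and 995 bases. CDKN1B has 2411 bases, CDKN1A 2117, CDKN1C 1773 and CDKN2D 1425. Multiplied by the length in kb, which approximates the share of fragments, the level was 35.6 for CDKN2B, 23.3 for CDKN1B and 17.3 for CDKN1A, against 3.43 for CDKN2A, 2.14 for CDKN2C, 0.868 for CDKN2D and 0.342 for CDKN1C. CDKN2B and CDKN1B thus changed places, and the other 5 kept their rank. The product depends on the transcript that is used. With the shortest and the longest coding transcript it was 19.4 and 35.6 for CDKN2B and 5.58 and 41.9 for CDKN1B.

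Reads can be shared only where members are nearly identical, and this concerned CDKN2A and CDKN2B. Their canonical transcripts align over 361 bases without a gap at 86.7% identity. The longest identical run, of 80 bases, lies in exon 2 of each gene. The aligned part is 36.9% of the CDKN2A transcript and 9.37% of the CDKN2B transcript. Of the 50-base windows of CDKN2A, 31 of 929 (3.34%) also occur in CDKN2B. Of its 100-base windows, 0 of 879 occur in a transcript of any other gene. No window of 50 bases of the other 5 inhibitors was found in another gene. Outside their own locus, the only copies of at least 90% identity and 100 bases on the chromosomes of GRCh38 were those of CDKN2A and CDKN2B in each other (93.0% identity over 259 bases).

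The CIP/KIP genes share only a short stretch. CDKN1A and CDKN1C align over 54 bases at 87.0% identity and CDKN1B and CDKN1C over 39 bases at 87.2%, with identical runs of at most 14 bases. The stretch lies at the start of the region that binds the cyclin and the kinase. Its first 30 coding bases are shown because they are the most alike part of 3 genes whose levels differed by up to 50.1 times. They lie at chr6:36684150-36684179 for CDKN1A (plus strand), chr12:12717921-12717950 for CDKN1B (plus strand) and chr11:2885376-2885405 for CDKN1C (minus strand), GRCh38. Capitals mark the 6 positions that are not the same in all 3.
CDKN1A: gcctgcCgCCGcctcttcggCccAgtggac
CDKN1B: gcctgcAgGAAcctcttcggCccGgtggac
CDKN1C: gcctgcCgCAGcctcttcggGccGgtggac

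CDKN2A had been set apart as a background control, because both copies of the gene are known to be lost in A549 cells. The values go against this use. At 3.71 and 3.31 FPKM, CDKN2A was above CDKN2C, CDKN2D and CDKN1C in both libraries. Most measured genes restricted to other cell lineages gave a lower background. Of 20 such genes 9 had a row, with a median of 0.0360 FPKM, and 8 of the 9 had at most 0.107 FPKM in any library. The exception was MBP, a myelin gene, with 7.85 FPKM in replicate 1 and 7.62 in replicate 2. MBP, with a mean of 7.74 FPKM that is above CDKN2A, was left out of the next ratios after its value was seen. The mean of CDKN2A was 37.1 times the highest mean of the other 8 genes and that of CDKN1C 2.04 times. In CDKN1C, at 0.224 and 0.162 FPKM, the distance from that background was therefore small. The CDKN2A value may hold reads shared with CDKN2B, whose part was not tested. The shared 50-base windows lie in the identical run of 80 bases of the 978-base transcript.

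The neighbors of CDKN2A on 9p21 were measured as well, since deletions of CDKN2A often take CDKN2B and MTAP with them. MTAP, a methionine salvage enzyme on the telomeric side of CDKN2A, had 4.92 FPKM in replicate 1 and 4.14 in replicate 2. CDKN2B, on the other side, was above CDKN2A in both libraries, with a ratio of 2.64 between means. The 3 genes nearest to each other in this region were thus all above 3 FPKM in both libraries. No step down to the level of the 8 low lineage genes was seen at CDKN2A.

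Farther out the levels were uneven. FOCAD had 13.05 and 13.57 FPKM and MLLT3 2.76 and 2.89, in replicate 1 and replicate 2. HACD4 had 0.669 and 0.624 and DMRTA1, the nearest measured gene beyond CDKN2B, had 1.04 and 0.891. The interferon genes IFNA1, with 0.206 and 0.250 FPKM, IFNE, with 0.156 and 0.0862, and IFNB1, listed at 0 and 0.00583, were low, as was ELAVL2, at 0.00949 and 0. KLHL9 had the largest SD of these genes, 1.08, with 0.386 FPKM in replicate 1 and 1.91 in replicate 2. CDKN2B-AS1, CDKN2A-DT, MIR31HG and IFNA2 had no row under these names, so the antisense transcript of the locus was not analysed here.

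The label of the cells was checked against epithelial markers. Of 7 epithelial markers 5 (71.4%) had FPKM of at least 1 in both libraries, near the 62.2% of named rows. The count by itself therefore does not identify the cells. Means above 30 FPKM were reached by 3 of 7 (42.9%), against 8.45% of named rows. The keratin KRT8 was the highest marker, at 339 and 335 FPKM. The other keratins were KRT18, at 50.6 and 51.7, KRT7, at 31.5 and 29.6, and KRT19, at 12.6 and 11.6. EPCAM (0.402 and 0.459) and CLDN4 (0.595 and 0.581) were below 1 and CDH1, E-cadherin, had 1.35 and 1.32. What the level of CDKN2A says of the cells used was not tested.

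The kinases and cyclins that the inhibitors bind were mostly higher. The list of 11 had a median of 23.6 FPKM, against 3.51 for the inhibitors and 2.47 for all named rows. Above 30 were 5 of 11, against 8.45% of named rows. Of the 77 pairs of an inhibitor with a kinase or cyclin, the inhibitor was higher in both libraries in 9, the kinase or cyclin in 67, and 1 pair overlapped. These pairs are not independent, since they share genes and libraries.

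INK4 levels stood below those of both their kinases. CDK6 stood at 56.3 FPKM in replicate 1 and 54.7 in replicate 2, whereas CDK4 stood at 21.3 and 20.3. The mean of CDKN2B, the highest INK4 gene, was 0.167 times that of CDK6 and 0.445 times that of CDK4. For CDKN2A these ratios were 0.0632 and 0.169, and for CDKN2D 0.0110 and 0.0293. CIP/KIP genes were also below CDK2, at 44.5 and 43.9 FPKM, and CDK1, at 9.95 and 9.97. CDKN1B was the inhibitor nearest to CDK1, with no overlap between the genes. XPC, a DNA repair gene, was the listed gene nearest to CDKN2B, with 8.98 and 8.85 FPKM.

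Only CCND2 and CCNE1 fell within the range of the inhibitors. CCND2, a D-type cyclin, had 0.268 and 0.257 FPKM and was below every inhibitor except CDKN1C. CCNE1, the E-type cyclin that activates CDK2, had 3.61 and 3.64 FPKM, below CDKN1B, CDKN2B and CDKN1A, overlapping with CDKN2A and above the other 3. Its paralog CCNE2 had 36.7 and 38.8. CCNB1, a mitotic cyclin, was the highest of the list at 234 and 248, followed by CDK6, CCND1 (47.6 and 48.6) and CDK2.

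Downstream of these kinases, RB and E2F genes had a median of 19.8 FPKM. FPKM of at least 1 in both libraries was reached by 10 of 10, against 62.2% of named rows. E2F4, a repressor E2F, had 44.3 and 43.2 FPKM and TFDP1, the partner of E2F proteins, 43.3 and 43.5. They were the only 2 of 10 above 30, against 8.45% of named rows. TFDP2 averaged 25.4 FPKM and RBL1, a pocket protein, 23.2. Each of the 10 means was above those of CDKN2A, CDKN2C, CDKN2D and CDKN1C.

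**Figure D3:**
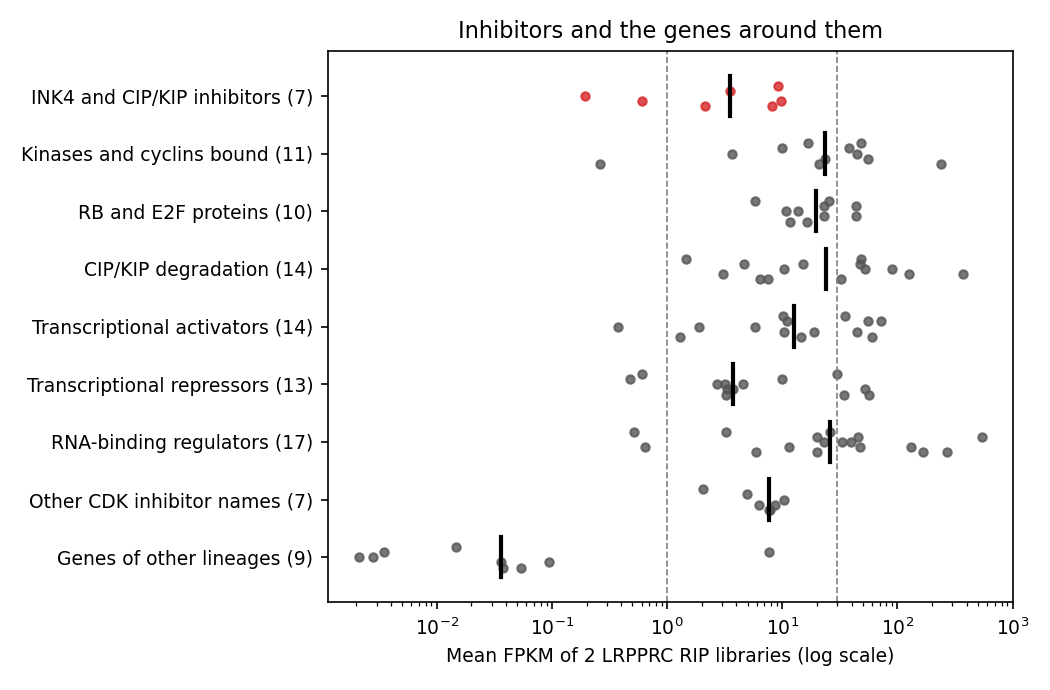
Mean FPKM of the 2 LRPPRC RIP libraries (x axis, log scale) for the CDK inhibitors, in red, and for 8 lists of related or silent genes, in gray, with the number of genes in parentheses. Each point is a gene, the black bars are medians and the dashed lines mark FPKM 1 and 30; the inhibitor median is 3.51 and that of the kinases and cyclins 23.6.

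Genes that remove CIP/KIP proteins ranged widely in level. The ubiquitin ligases SCF-SKP2 and CRL4-DTL mark p27 and p21 for destruction. Of 14 genes of these and other routes, 7 had a mean above 30, against 8.45% of named rows, with a median of 23.8 FPKM. CKS1B, the cofactor that lets SKP2 recognize p27, had 375 and 366 FPKM. CUL4B, a scaffold of CRL4, had 130 and 123, CDC20 91.8 and 87.0 and DDB1, the CRL4 adaptor, 51.9 in both libraries. SKP2 itself had 32.1 and 32.8. The highest inhibitor, CDKN1B, was below 9 of the 14 by mean and above the other 5. These were RBX1 (1.57 and 1.32 FPKM), UBAC1 (2.75 and 3.42), FZR1 (4.76 and 4.62), CUL4A (6.70 and 6.14) and RNF123 (7.65 and 7.47).

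The inhibitors ranged by mean between 0.193 and 9.67 FPKM, and the transcription factors that induce or repress them between 0.373 and 71.6 FPKM. Of 14 activators 5 were above 30, against 8.45% of named rows, with a median of 12.7 FPKM. Among those 5 were ETS1 (61.3 and 59.1), SMAD3, which carries the TGF-beta signal to CDKN2B (55.2 and 55.3), and SP1 (44.3 and 44.5). Of 13 repressors 3 were above 30, against the same 8.45%, with a median of 3.71. These 3 were MYC (55.6 and 56.7) and the Polycomb genes BMI1 (51.7 and 52.0) and SUZ12 (34.7 and 33.9). EZH2, the Polycomb methyltransferase, was just under the threshold at 29.4 and 30.2.

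RNA-binding proteins listed as regulators of inhibitor mRNAs had a median of 25.9 FPKM. Above 30 were 8 of 17, against 8.45% of named rows. YBX1 had 544 and 540 FPKM, NCL, nucleolin, 163 and 171, and PTBP1 135 and 129. PTBP1 has been tied to the translation of CDKN1B. RBM38, which binds CDKN1A mRNA, had 5.92 and 5.82, below CDKN1A in both libraries.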

How the data were processed

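LRPPRC-precipitated RNA of A549 cells was sequenced in 2 libraries. The authors, per the submitters' processing notes, used cutadapt 1.18 on adapters, aligned to GRCh38 with HISAT2 2.1.0, sorted with SAMtools and quantified with StringTie 1.3.3b, and deposited FPKM per gene and library. FPKM is scaled by transcript length and mapped fragments, so depth is not held in it. Of 5405 rows below 0.3 FPKM at most 1.41% shared a log2 ratio within 0.02, so whole reads were not recovered and no counting interval was computed.

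Means, SDs, ranks, ratios and counts above FPKM 30 or at 1 or more in each library were computed, with log2(FPKM + 1) for ratios between libraries. No set test was run. The counting was tested on simulated data. Members and 13 gene lists were chosen with earlier results of these data known. The genes named were all inhibitors and 9p21 genes, up to 4 of the highest of each list, genes at 0 in both libraries, the listed gene nearest in level to each inhibitor that reached FPKM 1 in each library and the inhibitor whose libraries differed most. CDK4, CCND2, CCNE2, SKP2, RBX1, UBAC1, FZR1, CUL4A, RNF123, RBM38, EPCAM, CLDN4, CDH1, CDKN2AIP, CDK2AP1 and CDK2AP2 were named after their values were seen. Positions, lengths and sequences are from GENCODE 44, later than the authors' annotation, on the same assembly, with blastn 2.17.0, Python 3.11.15, numpy 2.4.6, pandas 2.3.3 and matplotlib 3.10.9. Alternatives were other thresholds, single libraries, TPM scaling, scaling of replicate 2, transcript length, pseudocounts and backgrounds. Libraries of input or IgG were not analysed here, and values of some listed genes, 1 gene list and 1 pair of sequences are not reported here.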

Additional observations from a re-analysis of the deposited data

How the results depend on the processing

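The number of inhibitors above FPKM 30 stayed at 0 at thresholds of 20 and 50, in both or either library and with a single library. These settings could not change it, since the highest inhibitor value in any library was 9.76 FPKM, for CDKN1B in replicate 1. The number with FPKM of at least 1 was 5, with either library alone also 5, and was 6 at a threshold of 0.5 and 4 at 2. All 21 pairs kept their order after scaling to TPM and with either library alone. Neither could change it, since TPM divides a library by a constant and no pair overlapped. With FPKM multiplied by transcript length 20 pairs kept their order, and CDKN2B passes CDKN1B because the division by length is removed. Scaling replicate 2 by 1.01 moved each inhibitor's mean by less than 1 SD. Among named rows with a mean of at least 1 FPKM, CDKN1B was above 61.4% and CDKN2A above 30.9%. A pseudocount of 0.01 gave log2 ratios between the libraries of −0.40 for CDKN2D and 0.44 for CDKN1C, against −0.15 and 0.07 with 1. The sign of these ratios could not change, since the same pseudocount is added to both libraries. At FPKM 50, 2 of the 11 kinases and cyclins and 4 of the 14 degradation genes stayed above the threshold. No paired analysis was possible because both libraries belong to 1 condition. Depth is unknown, so the precision of CDKN2D and CDKN1C cannot be stated beyond the 2 values each.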

Other observations

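Of 7 other genes whose names point to CDK inhibition or association, all had FPKM of at least 1 in both libraries and 0 were above 30. Of named rows, 62.2% and 8.45% did so. The median of the 7 was 7.60 FPKM. CDKN2AIPNL averaged 10.4 FPKM. CABLES2 had 8.79 FPKM in replicate 1 and 8.45 in replicate 2, CABLES1, the listed gene nearest to CDKN1A, 7.50 and 8.11, and the phosphatase CDKN3 7.42 and 7.77. The other 3 were lower, with means of 6.33 FPKM for CDKN2AIP, 4.96 for CDK2AP1 (6.83 and 3.09) and 2.03 for CDK2AP2.

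Of 4 genes near CDKN2D on 19p13, 3 were above CDKN2D, at 0.524 and 0.693 FPKM. SLC44A2 averaged 12.4 FPKM. KRI1 had 4.68 and 4.97 FPKM in replicate 1 and replicate 2 and AP1M2 1.05 and 1.01, whereas S1PR5, with 0.0766 and 0.108, was below CDKN2D.

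TNFRSF10B, a death receptor, was the listed gene nearest in level to CDKN2C, with 2.16 and 2.18 FPKM, and its libraries lay within those of CDKN2C.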
